A study of Mus musculus with 7 samples.

Results

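Open chromatin was examined at 9 genes of heme synthesis and iron uptake (Alas1, Alas2, Alad, Uros, Urod, Cpox, Ppox, Fech and Tfrc) among 21938 protein-coding genes in HPC7 cells. The genes were chosen by their role. Every peak that touched the gene body or the 10 kb on either side of it (mm10, GENCODE M21) was taken. HPC7 is an immortalized line of mouse multipotent blood progenitors grown with stem cell factor, and the 7 bulk ATAC-seq libraries (HPC7-1, HPC7-2 and HPC7-4 to HPC7-8) share 1 cell line in their labels, which name no treatment. In this assay the Tn5 transposase inserts adapters into accessible DNA, and a peak of reads is an open chromatin region (OCR). The study describes the libraries as coming from separate culture batches. The peak names, however, carry the prefix EtOH in HPC7-5 to HPC7-8 and VD in the other 3 lists, which no label explains, so the 7 libraries may not share 1 treatment. The spread between libraries would then include such a difference, which was not tested. A difference given for 7 of 7 libraries has 1 direction under both prefixes.

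Heme is made from glycine and succinyl-CoA, with the first and the last steps in mitochondria. Alas1 and Alas2 encode the isozymes of 5-aminolevulinate synthase, which carries out the first step. Alas1 serves cells in general, and Alas2, on the X chromosome, serves maturing red cells and is known for erythroid enhancers within its introns. Alad, Uros, Urod, Cpox and Ppox encode enzymes of the steps from aminolevulinate to protoporphyrin, and Fech encodes ferrochelatase, which inserts the iron. Tfrc encodes the transferrin receptor, through which cells take up that iron. Alad and Uros are known to have a housekeeping start and a separate erythroid start. GATA1 and GATA2 are factors of erythroid and progenitor cells that bind words of the GATA type.

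The sequences that the findings turn on are shown 5′ to 3′ on the strand of the gene, as they stand in the mm10 reference. The Alas2 promoter is the RefSeq entry for GRCm38.p6 (chrX:150547167-150547466, plus strand). The other sequences are the 100 bp on either side of an OCR's median summit, at chrX:150540220-150540420, chrX:150549748-150549948 and chrX:150564722-150564922 on the plus strand, and at chr9:106247769-106247969, chr7:133702505-133702705, chr4:62515557-62515757 and chr4:62519946-62520146 on the minus strand. Capitals mark every match, on either strand, to the words searched. These were the GATA words AGATAA and AGATAG and TGATAA and TGATAG, the E-box words CACGTG and CAGCTG, the GC box GGGCGG, the CACCC box CCACCC, the AP-1 word TGACTCA with its reverse TGAGTCA, and TGCGCA of the NRF1 type. Matches may overlap.
Alas2 promoter: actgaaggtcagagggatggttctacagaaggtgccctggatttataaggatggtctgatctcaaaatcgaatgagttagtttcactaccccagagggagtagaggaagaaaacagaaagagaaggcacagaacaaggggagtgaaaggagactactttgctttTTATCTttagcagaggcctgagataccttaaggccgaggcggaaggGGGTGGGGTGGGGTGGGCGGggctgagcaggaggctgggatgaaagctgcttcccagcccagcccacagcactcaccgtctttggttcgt
Alas2 upstream OCR: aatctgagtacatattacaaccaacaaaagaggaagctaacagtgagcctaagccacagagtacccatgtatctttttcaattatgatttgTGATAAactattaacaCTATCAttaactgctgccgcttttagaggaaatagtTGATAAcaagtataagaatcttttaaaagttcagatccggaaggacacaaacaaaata
Alas2 intron 1 OCR: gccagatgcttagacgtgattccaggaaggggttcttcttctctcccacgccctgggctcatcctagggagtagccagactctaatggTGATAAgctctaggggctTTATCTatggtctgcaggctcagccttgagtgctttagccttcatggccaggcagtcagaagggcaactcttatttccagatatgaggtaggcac
Alas2 intron 8 OCR: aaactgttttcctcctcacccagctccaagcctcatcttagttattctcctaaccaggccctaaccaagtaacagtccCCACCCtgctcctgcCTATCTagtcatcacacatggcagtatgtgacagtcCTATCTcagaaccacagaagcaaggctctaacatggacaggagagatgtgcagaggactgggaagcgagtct
Alas1 promoter OCR: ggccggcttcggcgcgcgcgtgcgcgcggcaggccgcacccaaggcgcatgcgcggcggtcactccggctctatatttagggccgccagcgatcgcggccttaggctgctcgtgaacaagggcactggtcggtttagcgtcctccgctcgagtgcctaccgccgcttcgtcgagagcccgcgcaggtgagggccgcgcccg
Uros intragenic start OCR: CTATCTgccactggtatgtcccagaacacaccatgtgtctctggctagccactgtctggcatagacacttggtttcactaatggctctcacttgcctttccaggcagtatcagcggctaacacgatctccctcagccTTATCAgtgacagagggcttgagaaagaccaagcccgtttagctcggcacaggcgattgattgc
Alad intron 1 OCR: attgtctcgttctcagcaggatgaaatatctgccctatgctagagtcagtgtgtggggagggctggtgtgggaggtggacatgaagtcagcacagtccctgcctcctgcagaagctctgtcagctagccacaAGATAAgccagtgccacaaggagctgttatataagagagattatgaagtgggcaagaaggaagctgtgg
Alad promoter OCR: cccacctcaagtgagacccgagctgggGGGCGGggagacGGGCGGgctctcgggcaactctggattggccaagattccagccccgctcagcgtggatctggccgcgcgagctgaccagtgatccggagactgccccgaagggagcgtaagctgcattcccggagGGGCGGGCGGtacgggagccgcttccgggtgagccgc

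The lists held between 84593 and 132852 peaks, and in every list all fold values (100%) came from a whole number of reads over 1 background, to within 0.05 of a read. Fold enrichment is the ratio of the reads at a summit to the background of that library, each with 1 added, and the background lay between 4.44 and 20.4 reads. Because folds of different libraries were not put on 1 scale, each OCR was also given its percentile among all peaks of its own library. For the cell type, the promoters of 10 of 10 hematopoietic progenitor markers held an OCR in all 7 libraries. So did 7 of 12 erythroid markers, while the 5 others (Hbb-bt, Hbb-bs, Hba-a1, Hba-a2 and Slc4a1, the adult globin genes and the anion exchanger of red cells) had none in any library. Among the other cell types, 1 of 4 T cell markers (Cd3d), 0 of 3 B cell markers, 0 of 3 hepatocyte markers and 2 of 3 neuron markers (Rbfox3 and Snap25) did. Over all protein-coding genes the share was 55.9%. Of the 7 erythroid markers, Epb42, Ermap and Rhag stood at mean percentiles from 39.1 to 46.3.

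An OCR was called a promoter OCR of a gene when it lay within 1 kb of any of its annotated transcript starts. Of the 9 members, 8 had one in all 7 libraries, beside 55.9% of all protein-coding genes. The exception was Alas2, with a peak in 3 libraries. The same 8 members had a mean promoter percentile over 75, as did 49.9% of all genes. The median of the 9 members' mean percentiles was 93.0, against 74.7 over all genes. Genes with a peak at the promoter had a median between 91.8 and 94.5 in the 7 libraries, where the median of all 9 members, with 0 for Alas2 where it had no peak, was between 91.1 and 94.6.

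Ppox, protoporphyrinogen oxidase, had the strongest promoter OCR of the 9 members. Its fold enrichment was lowest at 124.5 in HPC7-6, had a median of 172.5 and was highest at 234.4 in HPC7-5, or 174.7 ± 35.6 (SD, n = 7), at percentile 99.0 ± 0.238. This OCR also lies within 1 kb of a start of Usp21, a deubiquitinase gene on the opposite side, so the reads cannot be divided between the genes. Tfrc followed with folds from 94.8 to 166.7, a median of 143.7 and percentile 97.7 ± 0.400. Alad, which joins aminolevulinate molecules into a pyrrole, had folds from 80.1 to 136.2, a median of 129.5 and percentile 96.8 ± 0.734. Ppox, Tfrc and Alad held ranks 1, 2 and 3 among the members in each of the 7 libraries.

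Cpox, Fech and Uros formed a middle group whose order changed between libraries, each of them taking ranks from 4 to 6. Cpox, coproporphyrinogen oxidase, had folds from 46.1 to 107.7 with a median of 84.7, and percentile 93.5 ± 2.09. Fech had folds from 52.1 to 92.2 with a median of 80.1, and percentile 93.0 ± 1.11. Uros, which closes the porphyrin ring, had folds from 51.2 to 91.7 with a median of 67.3, and percentile 92.4 ± 1.28, in an OCR that lies within 1 kb of the start of Bccip as well.

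Urod and Alas1 came next, at ranks 7 and 8 in all 7 libraries. Urod, which decarboxylates uroporphyrinogen, had folds from 36.5 to 58.3 with a median of 46.1, and percentile 88.2 ± 1.59, in an OCR within 1 kb of the start of Hectd3. Alas1 had folds from 30.7 to 39.2 with a median of 36.2, and percentile 85.8 ± 1.48. The fold of the Alas1 promoter varied least between libraries, with a coefficient of variation of 8.46% against 16.7% to 23.6% for the other 7. Alas1 was thus lowest of the 8 promoters that were open in all libraries, and yet above 75 in every library.

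**Figure D1:**
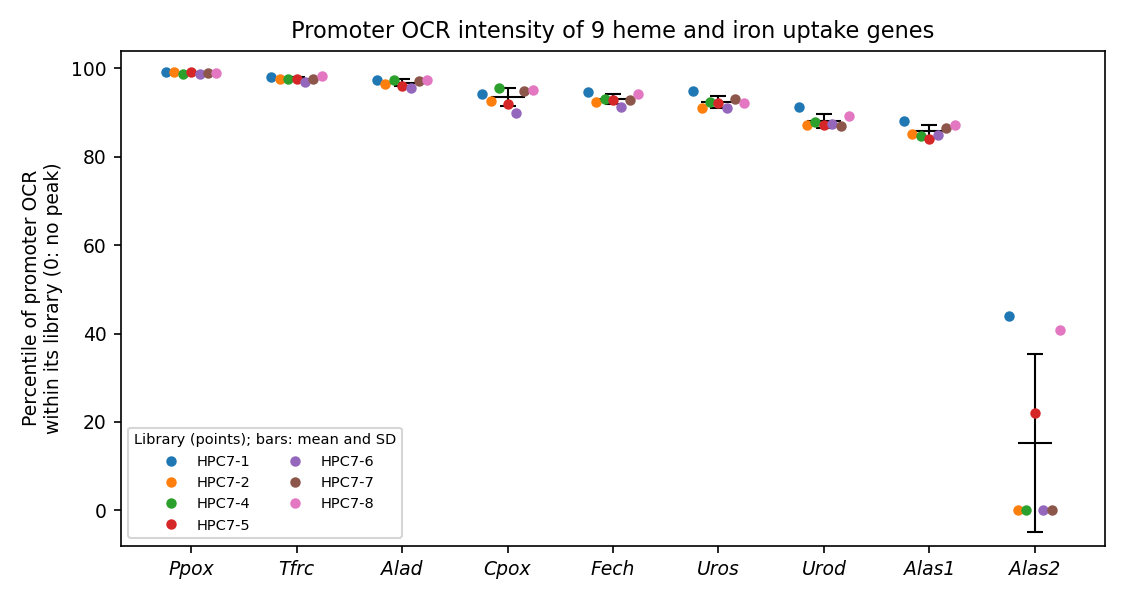
Percentile of the strongest promoter OCR within its own library (vertical axis, 0 where no peak is listed) for the 9 members, with 1 point per library and bars for the mean and SD of 7 libraries. All points of 8 members lie above 84, while those of Alas2 lie between 0 and 43.9.

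Neighbours in this order were compared with exact sign-flip permutation tests over the 7 libraries, adjusted by Benjamini-Hochberg over 8 pairs. Ppox exceeded Tfrc by 1.32 ± 0.381 percentile points, Tfrc exceeded Alad by 0.938 ± 0.467 and Alad exceeded Cpox by 3.24 ± 1.41, each in 7 of 7 libraries (exact permutation, adjusted p = 0.0208). Uros exceeded Urod by 4.18 points, from 2.88 to 6.14, and Urod exceeded Alas1 by 2.36 ± 0.974, also in 7 of 7 libraries with the same adjusted p. The difference between Cpox and Fech, 0.482 ± 1.49 points with a range from -1.36 to 2.51, was not larger than the spread (exact permutation, adjusted p = 0.438). Fech and Uros differed by 0.652 ± 0.793, positive in 5 of 7 libraries (exact permutation, adjusted p = 0.0893). Without the pair of Alas1 and Alas2, in which libraries with no peak were set to 0, the adjustment over 7 pairs gave 0.0219 for the 5 pairs that differed in 7 of 7 libraries, 0.438 for Cpox and Fech and 0.0911 for Fech and Uros. The order was read from the same values, so these tests say only which neighbours lie apart by more than the spread between libraries.

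Of the neighbouring pairs, the isozymes of the first step stood furthest apart. At the starts of the protein-coding Alas2 transcripts no library listed a peak within 1 kb, in a class (promoter OCR at a protein-coding start in all 7 libraries) that held 54.3% of all genes and 8 of the 9 members. The peaks that count for Alas2 lay 6825 bp into the gene, in intron 4, near the start of a transcript annotated with a retained intron. They were listed in HPC7-1, HPC7-5 and HPC7-8 only, with folds from 4.30 to 5.39 and 24 to 91 reads at the summit. Alas1 exceeded Alas2 by 70.6 ± 19.2 percentile points (from 44.3 to 86.5). In 4 of the 7 libraries Alas2 had the value 0 because no peak was listed, which fixes the direction there, so no p is read from the 7 libraries. Over the 3 libraries with a peak at both genes the difference was 3.05 on the log2 fold scale (exact permutation p = 0.250, the smallest that 3 libraries allow). The size of this difference depends on the window, as it was 85.8 points at protein-coding starts only and 6.35 points with 3 kb on either side of a start, which takes in the OCR in intron 1 of Alas2. An unlisted peak means that none passed the authors' threshold at that depth, not that the site was closed.

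Alas2 was nevertheless not without open chromatin. An OCR in intron 1, at chrX:150549522-150550243 with its median summit 2473 bp into the gene, was listed in all 7 libraries. Its fold was 14.1 at the lowest, in HPC7-6, 25.3 at the median and 33.2 at the highest, in HPC7-5, and the reads at the summit numbered from 89 to 603. The summits of the 7 libraries fell within 7 bp of each other. At percentile 79.5 ± 4.61 this OCR was above the Alas2 promoter value by between 41.5 and 82.2 points, and promoter minus intron came to -64.3 ± 16.9. This is a description, since the promoter value is 0 in the 4 libraries without a peak. With a promoter window of 3 kb the intron 1 OCR itself counts as the promoter, and promoter minus strongest non-promoter OCR turns to 14.1 points. Alas2 was the 1 member with a non-promoter OCR in all 7 libraries above its promoter, as 23.9% of all genes had.

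The sequence of this intron 1 OCR, shown above, holds 2 GATA words that flank the summit. TGATAA begins at -12 bp from it on the gene strand, and TTATCT, which is AGATAA on the opposite strand, begins at 6 bp. Of all OCRs in all 7 libraries that lie away from transcript starts, 37.8% hold a GATA word in such a window and 9.98% hold 2 or more.

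The other OCRs of Alas2 were weaker. In intron 8, 17447 bp from the start at chrX:150564644-150565091, a peak was listed in 6 libraries, with folds from 3.64 in HPC7-7 to 7.28 in HPC7-8 and none in HPC7-6. Its sequence holds CCACCC at -22 bp from the median summit and CTATCT, the reverse of AGATAG, at -7 and 29 bp. Upstream, at -7055 bp (chrX:150540019-150540633), an OCR in all 7 libraries had folds from 6.73 to 12.9 with a median of 11.7, at percentile 65.4 ± 6.46. That window holds 3 GATA words at -9, 7 and 43 bp from the summit, and its GC content is 33.3%. All 4 OCRs of Alas2 also lie within the annotated body of Apex2, a DNA repair gene on the X chromosome, so their assignment to Alas2 rests on position alone.

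**Figure D2:**
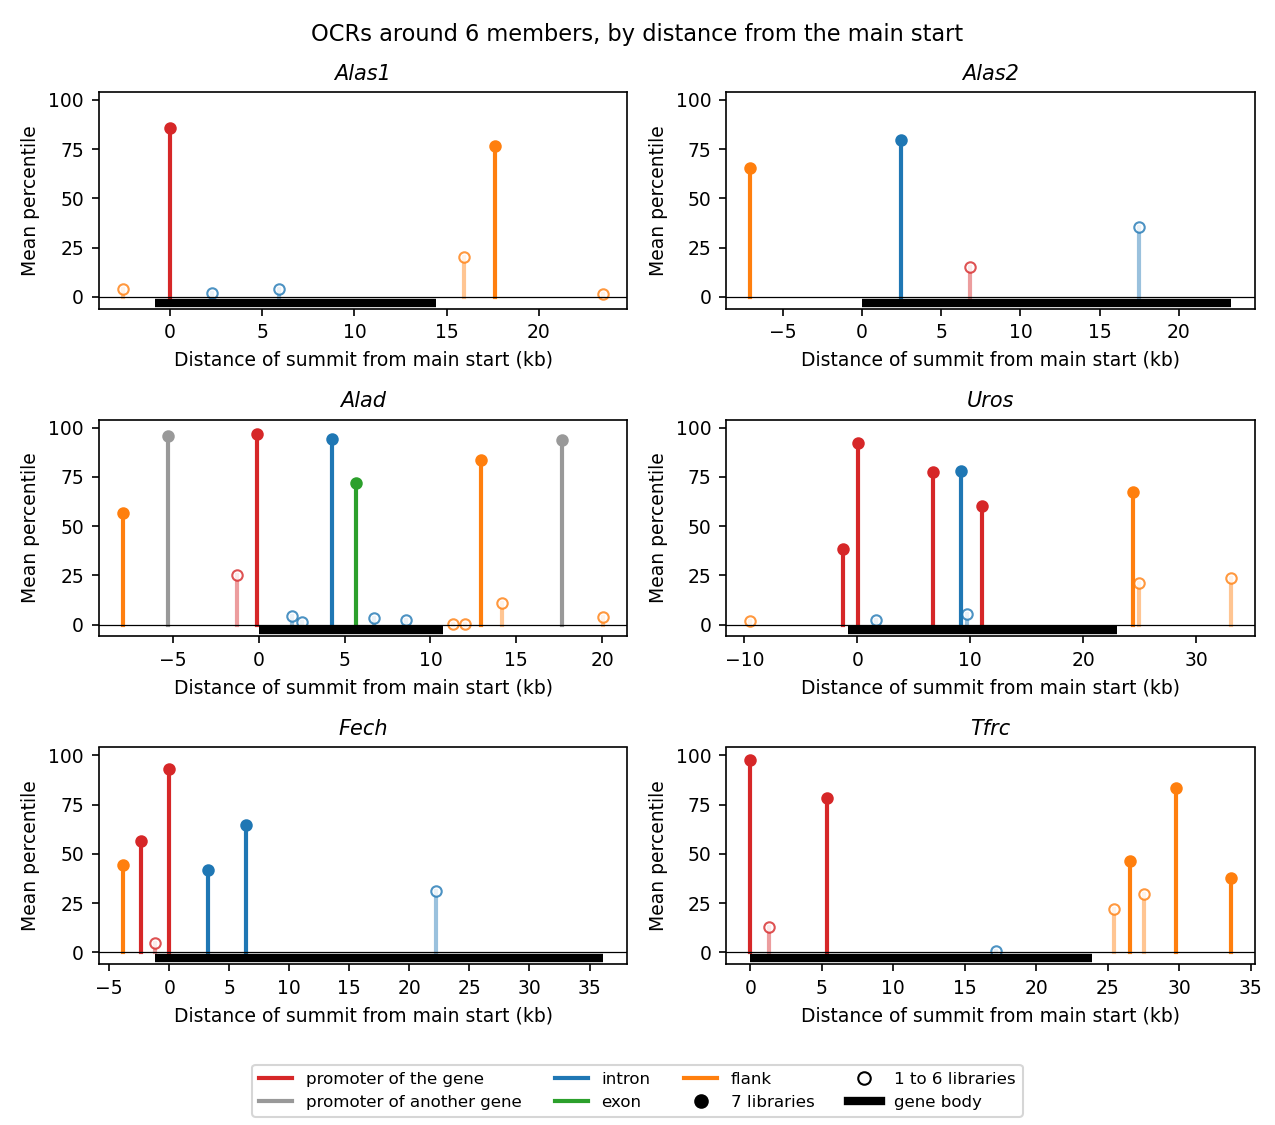
Mean percentile over the 7 libraries (vertical axis, a library without a peak counting as 0) of every OCR in the windows of 6 members, by distance of its summit from the start of the main transcript in kb, with filled heads for OCRs in all 7 libraries and the gene body as a black bar. The tallest line of Alas2 is its intron 1 OCR at 79.5, whereas the tallest line of the gene's own in the other 5 panels is at the main start.

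Uros had a second promoter OCR inside the gene. At chr7:133702043-133703053, 6676 bp from the main start and over the starts of the protein-coding transcripts Uros-209 and Uros-210, it was listed in all 7 libraries. Its fold was lowest at 14.7 in HPC7-7, had a median of 15.9 and was highest at 31.0 in HPC7-5. It stood at percentile 77.7 ± 4.33, below the main Uros promoter by 14.7 points, or -14.7 ± 3.75 as alternative minus main (7 of 7 libraries, exact permutation, adjusted p = 0.0156 over 2 genes). The window printed above holds CTATCT, the reverse of AGATAG, at -100 bp and TTATCA, the reverse of TGATAA, at 37 bp. Within 100 bp of its summit, the main Uros promoter OCR holds none of the exact words searched. The 300 bases that RefSeq lists for the main Uros promoter, however, hold 1 CACGTG and 1 GGGCGG, and no GATA word. Within its body Uros had 2 further OCRs in all 7 libraries, in intron 4 with folds from 11.3 to 24.6 (percentile 77.8 ± 4.53) and in intron 5, near the start of the noncoding transcript Uros-207, with folds from 6.41 to 11.9 (percentile 60.1 ± 8.08).

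Alad had a second strong OCR in intron 1, at chr4:62514927-62517378. Its summit was 4261 bp from the main start, and in all 7 libraries its peak spans a start, 3175 bp into the gene, that RefSeq lists for a predicted transcript. GENCODE M21 has no start there, and whether the predicted start is the erythroid start known for Alad was not tested. The fold was lowest at 68.1 in HPC7-6, had a median of 80.4 and was highest at 100.8 in HPC7-8. Its mean percentile, 94.1 ± 0.989, was above the mean promoter percentiles of 6 members, from Cpox down to Alas2, as a description. Library by library this did not always hold. The Cpox promoter had the higher percentile in HPC7-1, HPC7-4 and HPC7-7, and those of Fech and Uros had it in HPC7-1. Alternative minus main came to -2.67 ± 0.835 points within Alad (7 of 7 libraries negative, exact permutation, adjusted p = 0.0156). Where the summit rather than any base of the peak had to lie within 1 kb of the predicted start, this OCR no longer counted there and the value was -95.6, from a weak OCR listed in 1 library. The window holds AGATAA at 32 bp from the summit, while that of the main promoter holds 4 matches to GGGCGG.

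In the windows of the other members the strongest non-promoter OCR stayed below the promoter. For Tfrc the strongest lay beyond the gene, 5900 bp past its end at chr16:32638326-32639131, with folds from 19.7 to 39.5, a median of 28.5 and percentile 83.5 ± 3.26, which is 14.2 ± 2.91 points below the promoter. A further Tfrc OCR in intron 2, counted as a promoter OCR because the retained-intron transcript Tfrc-205 starts within 1 kb, had folds from 14.9 to 28.0. For Alas1 the strongest lay 3210 bp past the gene's end, with folds from 13.1 to 23.1, and was 9.39 ± 3.28 points below the promoter. Fech had 2 OCRs in intron 1 in all 7 libraries, with folds from 8.13 to 13.3 and from 3.93 to 8.70, the stronger of them 28.3 ± 5.51 points below the promoter. For Urod the difference was 13.8 ± 5.26 points and for Ppox it was 31.1 ± 7.49, or 69.0 with a promoter window of 3 kb. Cpox, the longest of the 9 genes at 47345 bp, had no intronic OCR in all 7 libraries, and its strongest, in 6 libraries, was 71.7 ± 10.4 points below the promoter. For the 7 members other than Alas2 and Cpox the promoter was higher in 7 of 7 libraries (exact permutation, adjusted p = 0.0156 over 9 members, and the same over these 7). For Alad this is the same pair of OCRs as alternative minus main, given above, and adds no separate test. For Cpox the OCR was set to 0 in HPC7-5, which lists no peak there, and without that library the difference was 68.3 points (exact permutation, adjusted p = 0.0312).

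**Figure D3:**
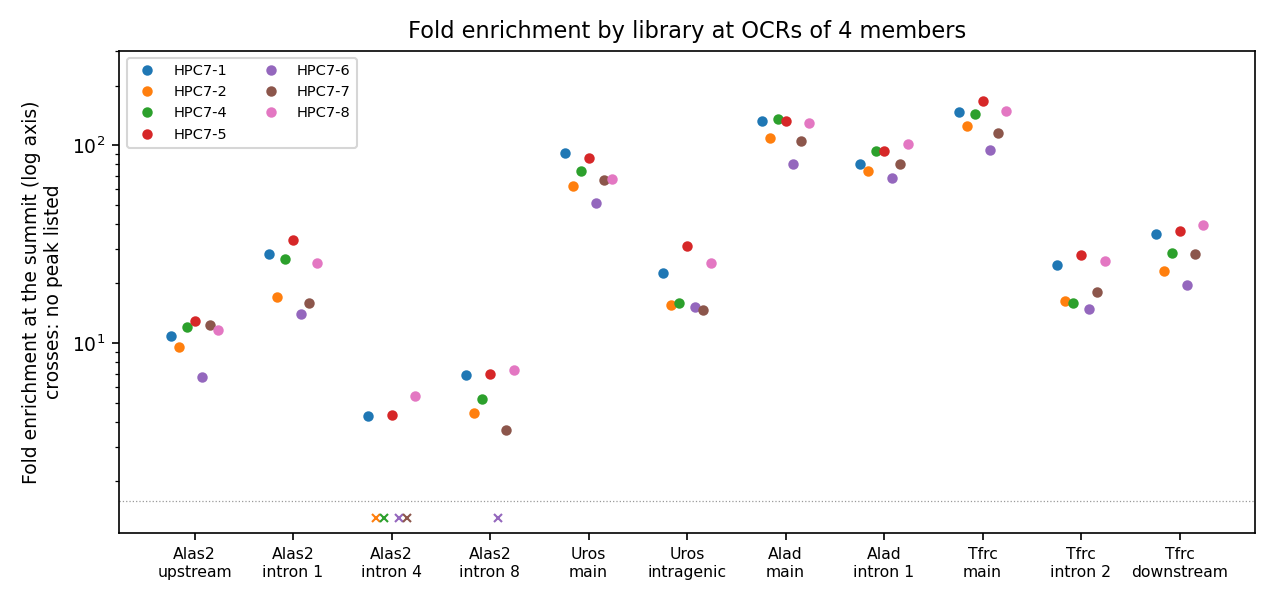
Fold enrichment at the summit (log axis) in each of the 7 libraries for OCRs of Alas2, Uros, Alad and Tfrc, with crosses where a library lists no peak. The Alas2 intron 1 points lie between 14.1 and 33.2 and the Alad intron 1 points between 68.1 and 100.8.

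In the windows of the 9 members together there were 76 OCRs, of which 38 were in all 7 libraries, 22 in 2 to 6 libraries and 16 in 1 library. Among all OCRs of the 7 lists, 66425 of 156663 were in all 7 libraries. The member OCRs outside the full set were weak, and 37 of 38 stayed under a fold of 10 in every library. Of those in 1 library, 6 came from HPC7-1, which has the longest list, and 6 from HPC7-6, which has the shortest. The OCRs in all 7 libraries were 14 promoter OCRs of members, 6 promoter OCRs of other genes, 6 intronic, 1 exonic, 3 upstream and 8 downstream. Of the 9 members, 5 (Alas2, Alad, Uros, Ppox and Fech) had an intronic OCR in all 7 libraries, beside 36.8% of all genes. Alas2 alone of the members had such an OCR with no promoter OCR at a protein-coding start in any library, as did 7.49% of all genes. Per 10 kb of window the median member held 1.14 OCRs in all 7 libraries, against a median of 0.486 over all genes.

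The promoters also differed in base composition, which the choice of genes did not use. RefSeq lists 12 promoters of 300 bases for 8 members. The ratio of observed to expected CpG was 0.298 at the intragenic Uros start and 0.318 at Alas2, both below the median of 0.384 over 32841 promoters, and from 0.581 at Cpox to 1.16 at the main Uros start in the others. GATA words occurred in 3 of the 12 promoters, with 1 at Alas2, 2 at the intragenic Uros start and 3 at Cpox, where 29.8% of all promoters hold one. The Alas2 promoter printed above further holds a run of overlapping CCACCC matches on the opposite strand, 3 in all, that ends in GGGCGG.

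**Figure D4:**
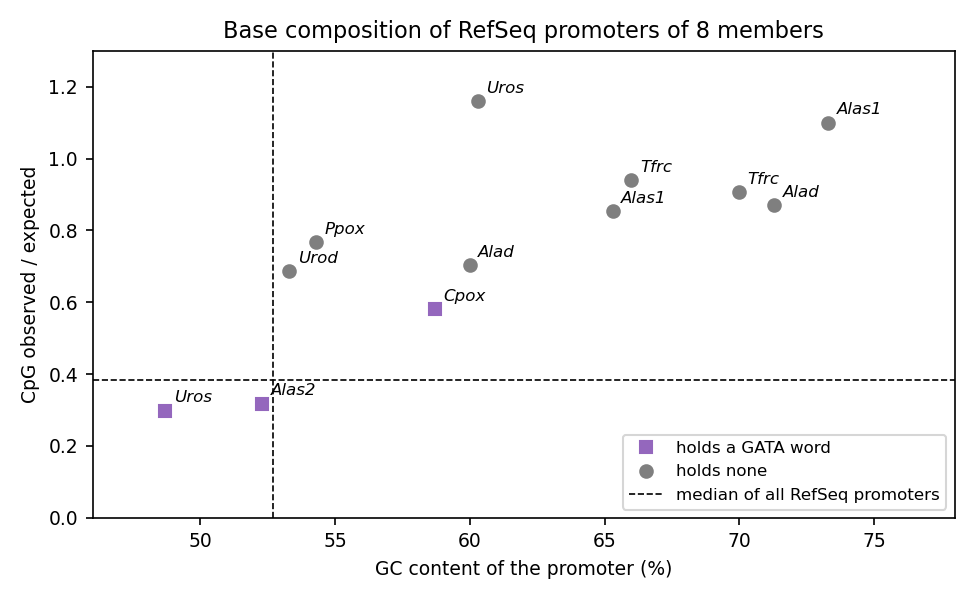
Ratio of observed to expected CpG against GC content (%) for the 12 RefSeq promoters of 8 members, with squares for promoters that hold a GATA word and dashed lines at the medians of all promoters. The intragenic Uros promoter, at 0.298, and the Alas2 promoter, at 0.318, lie below the median ratio of 0.384.

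The words were also counted under the summits. None of the 8 main promoter OCRs held a GATA word within 100 bp of the summit, where 19.0% of all promoter OCRs do, and 4 of them (Alad, Urod, Ppox and Fech) held GGGCGG, where 39.5% do. Of all 14 promoter OCRs of members, 4 held a GATA word, each of them among the 6 further ones, at Uros in intron 5 and at the intragenic start, at Fech and at Tfrc in intron 2. Of the 18 OCRs in all 7 libraries that lie away from starts, 9 held one, beside 37.8% of such OCRs in general. The background was not divided into main and further promoters. Within 50 bp of the summit, GGGCGG was held by 2 of the main promoter OCRs (Urod and Fech) beside 25.7% of all promoter OCRs, and GATA words by 9 member OCRs in place of 13. A word is a description of these letters and not a bound site.

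The wider heme and iron pathway was covered by a list of 44 genes. A promoter OCR was listed in all 7 libraries for 38 of them (for 55.9% of all genes), 3 had one in 1 to 6 libraries and 3 had none, and the median of their mean percentiles was 94.0. The highest were Flvcr1, a heme exporter, Steap3, which reduces iron in endosomes, and Glrx5, of iron-sulfur cluster assembly, each at percentile 99.9, followed by Aco1, iron regulatory protein 1, at 99.5 ± 0.163 and Slc25a28, the mitochondrial iron importer mitoferrin 2, at 99.4 ± 0.205. Slc25a37, the mitoferrin of red cells, had no promoter OCR, nor had Ftmt, mitochondrial ferritin, and Hjv, hemojuvelin. Hamp, hepcidin, had one in 6 libraries with folds up to 5.09, Trf, transferrin, in 4 with folds up to 3.64, and Slc40a1, the iron exporter ferroportin, in 3 with folds up to 5.39.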

How the data were processed

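Bulk ATAC-seq of 7 libraries of HPC7 was analysed from the deposited peak lists. According to their methods the authors used Cutadapt for trimming, BWA for alignment to mm10 and MACS2 for peaks, library by library. Versions and options are not given in the sources used here. The deposited lists give a fold enrichment (a ratio), a -log10 p, a -log10 q and a score derived from the -log10 q, with no normalization between libraries. The prefixes of the peak names, VD and EtOH, were not used as groups because the labels do not give them. Depth is given as peaks per list and as reads at a summit, recovered from the steps of the fold.

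Starts came from GENCODE M21. Peaks whose summits followed each other within 500 bp were counted as 1 OCR, a grouping chosen after seeing the data because merging at 1 bp joined the Alad promoter and intron 1. Percentiles were ranks of fold within a library, 0 where no peak was listed. Differences were tested with exact sign-flip permutation tests (two-sided, 128 sign patterns, threshold 0.05) and Benjamini-Hochberg adjustment. No test was made over the members as a list. The promoter OCR and the non-promoter OCR of a gene were each the strongest of their kind, so both were picked by level.

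The members, the lists and the rules were chosen with earlier results of these data known. Genes named were the 9 members, those of the related list without a promoter OCR in all 7 libraries, its 5 highest, genes with promoters in the windows, and the 3 genes closest in percentile to the highest and the lowest member. Hjv was matched as Hfe2. Promoter sequences are those of RefSeq GRCm38.p6, which matched 8 of 9 members. Alternatives were promoter windows of 3 kb and 250 bp, the -log10 p as intensity, a minimum of 5 for -log10 q, the summit as overlap, lists of equal length, other flanks, 50 bp for words, each library left out and, chosen after seeing the data, protein-coding starts only and adjustments without tests that rest on values set to 0. Functions were tested on simulated data. Software was pysam 0.24.0, matplotlib 3.10.9, scipy 1.17.1, pandas 2.3.3 and numpy 2.4.6 under Python 3.11.15.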

Additional observations from a re-analysis of the deposited data

Results flagged for a closer look

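In 76 sets of 7 library values (fold and percentile of the 38 OCRs in all libraries), no library stood apart from the others by Dixon's criterion at 95%, which chance alone passes in about 1 of 20 sets.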

How the results depend on the processing

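Of 442 recomputed values for 35 results, 435 were taken as unchanged, by direction and side of the threshold or by the spread. For counts, which have no such spread here, this included GATA words in 9 member OCRs in place of 13. It also included 29 OCRs in all 7 libraries in place of 38 with flanks of 5 kb. A further such count was promoter support in 6 libraries in place of 7 when 1 library was left out. Tests that kept their direction and side of the threshold counted as unchanged whatever the change in size. The values of 6.35, 25.0, 25.1, 69.0 and -95.6 points given below are therefore among the 435. With a promoter window of 3 kb the Alas2 intron 1 OCR counted as a promoter, so that Alas2 had support in 7 libraries in place of 3 and promoter minus strongest non-promoter OCR turned from -64.3 to 14.1 points (exact permutation, adjusted p = 0.0156). The same window brought Alas1 minus Alas2 from 70.6 to 6.35 points, and promoter minus strongest non-promoter OCR to 25.0 for Alad, 25.1 for Uros and 69.0 for Ppox, and left Fech with no non-promoter OCR to compare. With protein-coding starts only, an alternative added after seeing the data, Alas2 had support in 0 libraries. On the log2 fold scale Alas1 exceeded Alas2 by 3.05 over the 3 libraries with a peak at both (exact permutation p = 0.250, the smallest that 3 libraries allow). The median percentile of the members was 91.5 in place of 93.0 with 84593 peaks from each library. With the gene body alone, 37 OCRs in place of 76 were counted, and 19 in place of 38 in all libraries, which follows from the smaller windows. Merged at 1 bp, an alternative added after seeing the data, the windows held 67 OCRs. Leaving out each library in turn changed no call, and Alas2 promoter minus intron 1 OCR lay between -68.1 and -61.3 points. The small difference between Cpox and Fech, 0.482 points over all 7 libraries, moved between 0.144 and 0.789. With the summit as overlap the strong intron 1 OCR of Alad no longer counted at the predicted start, and a weak OCR listed in 1 library gave -95.6 points for alternative minus main in place of -2.67. No groups of libraries are compared (all 7 libraries carry 1 group label), so there was no pairing of samples between groups. The tests themselves are paired by library, as they set OCRs of the same library against each other. Peaks of few reads limit the rest: the lowest fold that a list holds lay between 1.68 and 2.44, and a weaker site was not detectable at that depth.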

Other observations

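Several windows held strong promoters of neighbouring genes. Cldnd1, past the end of Cpox, had an OCR with folds from 92.1 to 192.0 in the 7 libraries, above the Cpox promoter in mean fold (142.4 ± 32.8 against 82.1 ± 19.4). Pole3, at -5298 bp from the Alad start together with the transcript 4933430I17Rik, had 101.2 ± 17.5. Usp21 had a further OCR at 96.1 ± 17.9, Hdhd3 79.8 ± 14.1 and B4galt3 66.1 ± 8.91, while a start of Hectd3 and 1700021J08Rik had 10.5 ± 2.47. The Alas1 promoter OCR also lies within 1 kb of a start of 4930500F10Rik.

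Over the 7 libraries the genes closest in promoter percentile to Ppox were Usp21, with a mean absolute difference of 0 because the OCR is shared, Pxmp4 with 0.0879 and Mast3 with 0.0902. Those closest to Alas2 were 1500009C09Rik with 2.84, Vmo1 with 3.12 and Cabp4 with 3.61.

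HPC7-6, the shortest list, had the lowest fold of the 7 libraries at 7 of the 8 promoters that were open in all of them, and HPC7-5 had the highest at 3. The CTCF core consensus, searched after the sequence was seen, matched within 100 bp of the summit at 1 of the 18 member OCRs away from starts, the one 5900 bp past Tfrc, where 7.02% of such OCRs match.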
